A study of Mus musculus with 12 samples.

Results

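Bone matrix and stromal niche genes were followed through RNA-seq of cells sorted as hematopoietic stem cells (HSCs) from the bone marrow of wild-type mice. They were chosen by name, as Col1a1, Col1a2, Col3a1, Sparc, Bglap, Bglap2, Ibsp, Cxcl12, Kitl and Lepr, and these 10 genes of 31272 gene names in the files were all found. Col1a2 was picked because it is almost lost in irradiated cells, so its values against Ctrl or IR are given as a description with no test. The 12 libraries fell into 4 groups of 3, all of wild-type genotype. Ctrl cells came from control mice, IR cells from mice given ionizing radiation (IR), and Ab_IR and L_IR cells from irradiated mice with a further condition that the labels do not spell out. Irradiated cells were collected 3 days after exposure. According to the study's methods, HSCs were enriched by lineage depletion and sorted as Lineage- Sca-1+ c-Kit+ Flt3- CD34- cells, and the age of the mice was not given in the sources used here. No source says whether the 3 libraries of a group came from separate animals, so p-values measure the spread between these samples only.

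Bone is built by osteoblasts, which secrete a matrix of type I collagen together with binding proteins such as osteonectin, osteocalcin and bone sialoprotein, and then mineralize it. In the marrow, perivascular stromal cells marked by the leptin receptor secrete CXCL12, which retains HSCs through the receptor CXCR4, and stem cell factor, which maintains them through the receptor KIT. These genes are textbook products of osteoblasts and stroma, and HSCs are not known as a main source of them.

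Levels are in FPKM (fragments per kilobase of transcript, scaled to the reads mapped), which correct for gene length and library size. FPKM hold no counts, so the depth behind each value is unknown and counting error cannot be stated. The FPKM of a library summed to 344338 to 405123, and 11467 to 12167 rows reached 1 FPKM. In Ctrl replicate 1, 44.1% of rows were at 0, more than in any other library (24.7% to 27.3%, 11 libraries). Nppa, which encodes an atrial hormone, was at 51.2 to 63.9 FPKM in the 3 IR libraries and in Ctrl replicates 2 and 3, whereas the remaining 7 libraries had 0 to 0.26 FPKM. This split by a heart transcript is kept beside each comparison. Genes of the sort also differed between groups, given here in the order Ctrl, IR, Ab_IR and L_IR. Kit was at 21.3 to 25.4, 6.7 to 7.0, 17.4 to 19.1 and 17.8 to 18.0 FPKM, and Ly6a, which encodes Sca-1, at 25.9 to 41.1, 53.7 to 61.5, 35.7 to 41.2 and 45.4 to 45.8 FPKM. Cd34 and Flt3, whose proteins the gate leaves out, were at 19.0 to 20.6, 3.66 to 3.91, 16.8 to 18.3 and 15.6 to 16.1 FPKM, and at 9.13 to 12.1, 0.96 to 1.22, 7.45 to 7.57 and 5.6 to 6.02 FPKM. All 4 thus stood nearer to Ctrl in Ab_IR and L_IR than in IR. Of the lineage genes, the myeloid Itgam was at 30.6 to 34.6, 51.3 to 53.0, 30.2 to 33.2 and 23.2 to 26.4 FPKM, Ly6g at 3.88 to 11.1, 4.77 to 7.33, 5.59 to 7.79 and 0.83 to 1.73 FPKM, the T cell gene Cd3e at 1.21 to 1.65, 0.76 to 0.81, 1.48 to 1.9 and 2.03 to 2.37 FPKM, and Ptprc at 14.0 to 18.1, 19.4 to 19.8, 13.6 to 14.7 and 16.5 to 18.0 FPKM. The part of heart transcripts and of cells outside the gate in the results below was not tested. In bulk libraries, fewer cells of a type and less RNA per cell cannot be told apart.

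The structural proteins of the bone matrix were the most abundant members in Ctrl cells. Col1a1 (ENSMUSG00000001506, chr11:94936224-94953042, plus strand, GRCm38) encodes the alpha 1 chain of type I collagen, the main fibre of bone. It was listed at 79.3, 85.3 and 100.2 FPKM in Ctrl, at 5.80, 6.26 and 5.87 FPKM in IR, at 22.1, 26.5 and 23.6 FPKM in Ab_IR and at 24.6, 23.5 and 24.2 FPKM in L_IR. All Ctrl libraries thus stood above all others and all IR libraries below, with Ab_IR and L_IR overlapping in between.

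Col1a2 (ENSMUSG00000029661, chr6:4504814-4541544, plus strand) encodes the alpha 2 chain that joins the alpha 1 chains in the same triple helix. It was at 38.1, 40.7 and 43.4 FPKM in Ctrl, at 0.96, 0.98 and 0.95 FPKM in IR, at 10.7, 10.96 and 10.4 FPKM in Ab_IR and at 9.76, 9.81 and 10.3 FPKM in L_IR. The IR libraries lay close together (SD 0.0153 FPKM, n = 3), and their mean was 2.36% of the Ctrl mean, the value for which the gene was chosen. The Ab_IR mean was 26.2% and the L_IR mean 24.5% of Ctrl.

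The transcripts of both chains did not keep their proportion. Col1a1 was 2.16 ± 0.126 (SD, n = 3) times the FPKM of Col1a2 in Ctrl, 2.25 ± 0.177 times in Ab_IR and 2.42 ± 0.0874 times in L_IR, but 6.20 ± 0.174 times in IR. The IR libraries lay at 6.04 to 6.39 and the other 9 libraries at 2.07 to 2.52. As Col1a2 was chosen for its low level in IR, this ratio is a description. Between Col1a1 and Sparc, which the choice did not use in this way, the ratio was 2.05 ± 0.0840 in IR against 2.78 ± 0.0589 in Ctrl, 2.53 ± 0.247 in Ab_IR and 2.58 ± 0.161 in L_IR, with no overlap between IR and the other groups.

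**Figure D1:**
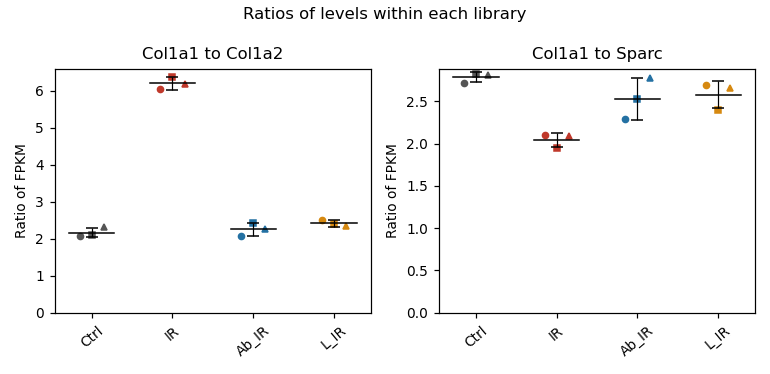
Ratio of Col1a1 to Col1a2 FPKM (left) and of Col1a1 to Sparc FPKM (right) in each of the 12 libraries by group. Points are libraries, the long bar is the mean and the error bar the SD of 3 libraries; the Col1a1 to Col1a2 ratio was 6.04 to 6.39 in IR and 2.07 to 2.52 elsewhere.

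Col3a1 (ENSMUSG00000026043, chr1:45311538-45349706, plus strand) encodes type III collagen, a fibre of soft connective tissue, and it did not follow type I collagen. It was at 0.27, 0.44 and 0.61 FPKM in Ctrl, at 0.28, 0.27 and 0.29 FPKM in IR, at 0.08, 0.09 and 0.05 FPKM in Ab_IR and at 0.08 FPKM in each L_IR library. Its Ctrl and IR libraries overlapped, and its lowest levels were in Ab_IR and L_IR. It was below 1 FPKM in all 12 libraries and therefore was not tested.

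Sparc (ENSMUSG00000018593, chr11:55394500-55423183, minus strand) encodes osteonectin, a glycoprotein that binds collagen and calcium. It was at 29.2, 30.2 and 35.6 FPKM in Ctrl, at 2.76, 3.21 and 2.81 FPKM in IR, at 9.66, 10.5 and 8.48 FPKM in Ab_IR and at 9.13, 9.81 and 9.13 FPKM in L_IR. Ctrl was again the highest and IR the lowest group, with Ab_IR and L_IR overlapping.

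Osteocalcin, a small protein that binds the mineral of bone through carboxylated glutamates, is encoded by Bglap (ENSMUSG00000074483, chr3:88383501-88384464, minus strand) and its neighbour Bglap2 (ENSMUSG00000074486, chr3:88377736-88378699, minus strand). The coding sequences of both are shown because they decide how far the values of the 2 genes can be separated. They were read from GENCODE M21 transcripts on GRCm38 in the direction of translation, are 288 bases long in each gene and are 98.6% identical. Capitals mark the 4 bases at which they differ.
Bglap: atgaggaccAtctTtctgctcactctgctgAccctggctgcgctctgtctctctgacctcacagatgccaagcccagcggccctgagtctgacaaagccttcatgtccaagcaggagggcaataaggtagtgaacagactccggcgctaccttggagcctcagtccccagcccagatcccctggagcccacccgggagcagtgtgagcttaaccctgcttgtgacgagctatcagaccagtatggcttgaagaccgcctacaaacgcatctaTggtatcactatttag
Bglap2: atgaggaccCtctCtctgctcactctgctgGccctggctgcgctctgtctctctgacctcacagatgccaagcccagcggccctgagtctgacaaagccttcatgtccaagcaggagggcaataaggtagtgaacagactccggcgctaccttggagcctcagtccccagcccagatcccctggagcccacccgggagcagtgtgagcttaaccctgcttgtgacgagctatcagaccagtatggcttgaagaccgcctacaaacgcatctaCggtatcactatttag
Of the 391 stretches of 50 bases in the Bglap transcript, 292 (74.7%) stand unchanged in the Bglap2 transcript, and of the 341 stretches of 100 bases 192 (56.3%) do. Reads from either gene could be split between them, so their single values are uncertain and their sum was read beside them.

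Bglap was at 11.3, 22.5 and 19.9 FPKM in Ctrl, at 0.14, 0 and 0.07 FPKM in IR, at 6.03, 6.20 and 5.80 FPKM in Ab_IR and at 5.89, 6.44 and 3.83 FPKM in L_IR. Bglap2 was at 22.6, 17.7 and 19.3 FPKM in Ctrl, at 0.12, 0 and 0 FPKM in IR, at 5.06, 4.39 and 5.74 FPKM in Ab_IR and at 2.99, 2.90 and 2.72 FPKM in L_IR. Ctrl replicate 1 was the lowest Ctrl library for Bglap and the highest for Bglap2. Summed over both genes, the Ctrl libraries came closer together, at 34.0, 40.2 and 39.1 FPKM, with 0.26, 0 and 0.07 FPKM in IR, 11.1, 10.6 and 11.5 FPKM in Ab_IR and 8.88, 9.34 and 6.55 FPKM in L_IR. The groups of the sum did not overlap, in the order Ctrl, Ab_IR, L_IR and IR. The related gene Bglap3 was at 0 to 0.02 FPKM in all 12 libraries.

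Ibsp (ENSMUSG00000029306, chr5:104299171-104311469, plus strand) encodes bone sialoprotein, which starts mineral deposition on collagen. It was at 5.69, 3.68 and 3.64 FPKM in Ctrl, at 0.09, 0.09 and 0.02 FPKM in IR, at 1.37, 1.26 and 1.17 FPKM in Ab_IR and at 1.25, 1.06 and 1.36 FPKM in L_IR. Again Ctrl stood above and IR below all other libraries, and Ab_IR overlapped L_IR.

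Of the niche genes among the members, Cxcl12 (ENSMUSG00000061353, chr6:117168535-117181367, plus strand) was the only one above 1 FPKM. It was at 4.10, 3.78 and 3.91 FPKM in Ctrl, at 0.38, 0.39 and 0.35 FPKM in IR, at 2.37, 2.61 and 2.78 FPKM in Ab_IR and at 2.11, 1.91 and 1.91 FPKM in L_IR. No pair of groups overlapped. Relative to Col1a1, Cxcl12 had a ratio of FPKM of 0.0450 ± 0.00636 in Ctrl and 0.0625 ± 0.00295 in IR, beside 0.0820 ± 0.00361 in L_IR and 0.108 ± 0.00982 in Ab_IR (SD, n = 3).

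Kitl (ENSMUSG00000019966, chr10:100015630-100100416, plus strand), which encodes stem cell factor, was at 0.59, 0.49 and 0.31 FPKM in Ctrl, at 0.19, 0.21 and 0.17 FPKM in IR, at 0.31, 0.24 and 0.31 FPKM in Ab_IR and at 0.15, 0.32 and 0.30 FPKM in L_IR. Lepr (ENSMUSG00000057722, chr4:101717404-101815352, plus strand), which encodes the leptin receptor, was at 0.57, 0.23 and 0.39 FPKM in Ctrl, at 0.08, 0.08 and 0.05 FPKM in IR, at 0.24, 0.20 and 0.14 FPKM in Ab_IR and at 0.21, 0.20 and 0.14 FPKM in L_IR. Neither reached 1 FPKM in any library, so neither was tested. For both genes IR did not overlap Ctrl or Ab_IR, and for Lepr it did not overlap L_IR.

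**Figure D2:**
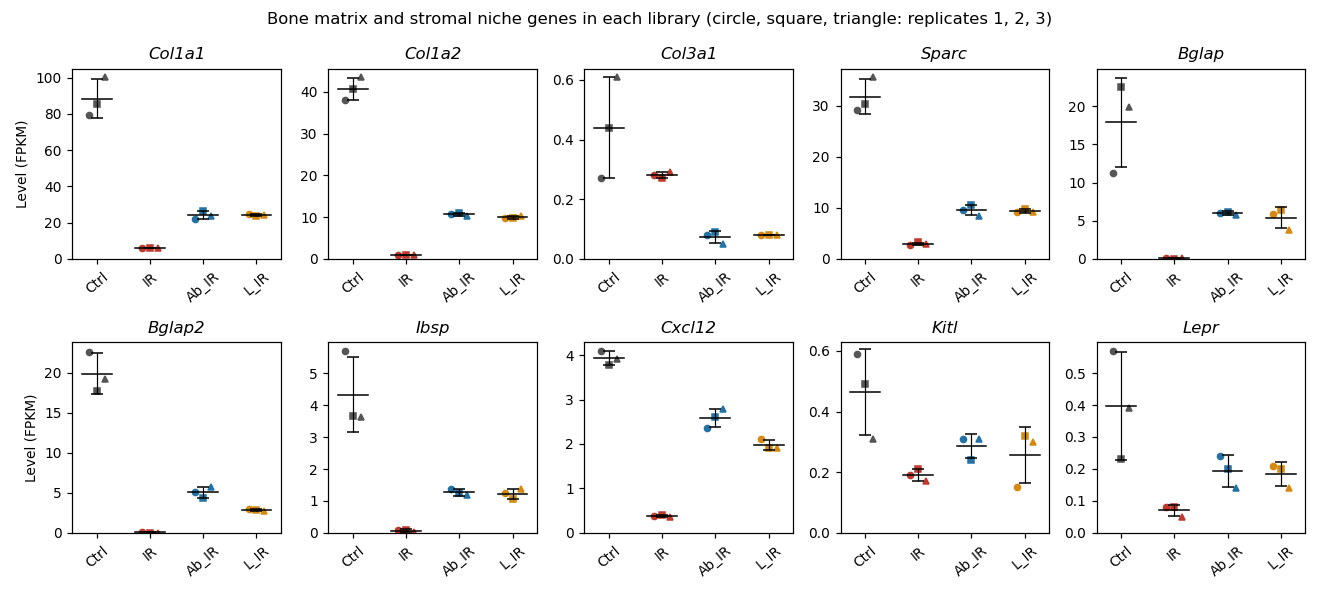
Level in FPKM of each of the 10 genes in each library, by group, with an axis of its own from 0 for each gene. Points are libraries (circle, square and triangle for replicates 1, 2 and 3), the long bar is the mean and the error bar the SD of 3 libraries; IR is the lowest group except for Col3a1, whose lowest levels of 0.05 to 0.09 FPKM are in Ab_IR and L_IR.

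Promoter sequence was set beside the expression of a matrix gene and of the niche factor that differ in how far they stood from Ctrl in Ab_IR and L_IR. The table of RefSeq promoters used here (GRCm38.p6) matched 8 of the members, and the promoters of Col1a1 and Bglap2 were not analysed here. Shown are the 250 bases before the start of Bglap, on the minus strand at chr3:88384467-88384716, and of Cxcl12, on the plus strand at chr6:117168285-117168534. Capitals mark, on either strand, the letters of the CCAAT box (CCAAT), of the core that RUNX factors bind (ACCACA), of the TATA box (TATAAA) and of the GC box (GGGCGG). Matches of different letters share no base in these promoters, while neighbouring matches of GGGCGG can.
Bglap: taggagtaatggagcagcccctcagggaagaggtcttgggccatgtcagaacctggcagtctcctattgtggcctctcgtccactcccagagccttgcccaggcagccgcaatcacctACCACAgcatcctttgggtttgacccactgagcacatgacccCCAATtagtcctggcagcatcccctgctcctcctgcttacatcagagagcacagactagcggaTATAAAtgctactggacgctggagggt
Cxcl12: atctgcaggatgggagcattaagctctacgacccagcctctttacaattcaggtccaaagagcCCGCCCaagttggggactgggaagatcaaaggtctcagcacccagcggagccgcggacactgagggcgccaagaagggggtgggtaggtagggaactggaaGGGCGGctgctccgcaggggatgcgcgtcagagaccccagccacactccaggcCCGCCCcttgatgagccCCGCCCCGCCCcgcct
The Bglap promoter held the CCAAT box letters once, from base -90 before the start, the RUNX core letters once, from base -132, and the TATA box letters once, from base -27, with no match of the GC box. The Cxcl12 promoter held 5 matches of GGGCGG and none of the other letters. Over 32851 RefSeq promoters of 300 bases (250 before to 50 after the start), 37.4% held CCAAT, 16.8% ACCACA, 13.6% TATAAA and 35.7% GGGCGG. In the same window, Col1a2 held CCAAT and GGGCGG, and Ibsp held CCAAT and TATAAA on the minus strand. Col3a1 held TATAAA alone, and Sparc ACCACA alone. Of the niche genes, Kitl held TATAAA and GGGCGG, and Lepr, which has 2 starts in the table, CCAAT at one and GGGCGG at the other. Among the 8 members matched, CCAAT and TATAAA thus stood in both matrix and niche genes. ACCACA stood only in the matrix genes Bglap and Sparc, and GGGCGG in the niche genes Cxcl12, Kitl and Lepr and in the matrix gene Col1a2. A match describes letters and not a bound site.

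IR was set against Ctrl to ask how these genes stood 3 days after radiation. Type I collagen, osteonectin, osteocalcin, bone sialoprotein and CXCL12 transcripts were all lower in IR than in Ctrl. As a share of the Ctrl mean, IR stood at 6.77% for Col1a1, 9.23% for Sparc, 0.391% for Bglap, 0.202% for Bglap2, 1.54% for Ibsp and 9.5% for Cxcl12. Osteocalcin and bone sialoprotein transcripts were thus nearest to absent. Kitl (41.0%), Lepr (17.6%) and Col3a1 (63.6%) were nearer to Ctrl. In limma on log2(FPKM + 1), a scale that understates the change of low genes, Col1a1 fell by 3.67 (SE 0.0960, adjusted p = 5.26e-06) and Sparc fell by 3.05 (SE 0.0955, adjusted p = 8.87e-06). Bglap2, Bglap, Ibsp and Cxcl12 reached 1 FPKM in Ctrl libraries alone, and a filter on low values that they pass through the higher group favours a difference. Their p-values are therefore those of the limma fit with no such filter. In that fit Bglap2 fell by 4.32 (adjusted p = 3.48e-05), Bglap by 4.09 (adjusted p = 0.000388), Ibsp by 2.30 (adjusted p = 0.000865) and Cxcl12 by 1.84 (adjusted p = 0.000283). The difference of Col1a2 was -4.41, with no test.

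A gene was called where its adjusted p was under 0.05 and its log2 difference above 1 in size, among genes at 1 FPKM or more in at least 3 of the 6 libraries. In IR against Ctrl, 4.57% of the 12072 genes tested were called lower. Of the 10 members 7 passed the filter, of which Col1a2 has no test. Col1a1 and Sparc, the 2 that reached 1 FPKM in both groups, were called lower. The other 4 had to be lower to pass the filter, so nothing is read from their number. Of all genes 3.03% were called higher, and the share with an adjusted p under 0.05 was 43.1%. The libraries of the groups did not overlap for Col1a1 and Sparc, as for 58.1% of all genes tested. Without Ctrl replicate 1, which leaves the libraries that carry heart transcripts, both were still called, with Col1a1 at -3.74 (adjusted p = 1.43e-06) and Sparc at -3.11.

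**Figure D3:**
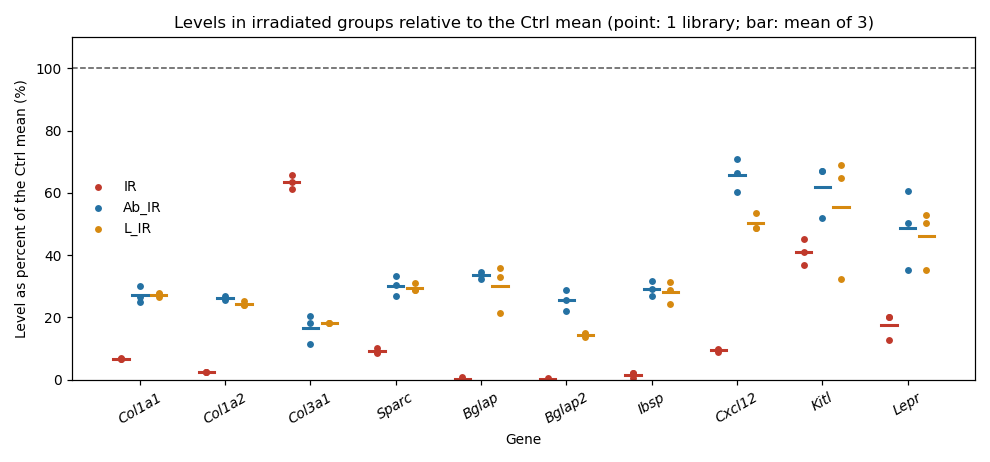
Level of each gene in IR, Ab_IR and L_IR as percent of its Ctrl mean (dashed line at 100). Points are libraries and bars the means of 3; in IR, Bglap, Bglap2, Ibsp and Col1a2 lie between 0.202% and 2.36%, and in Ab_IR and L_IR the matrix genes lie between 14.5% and 33.6% and Cxcl12 at 65.8% and 50.3%.

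Ab_IR and L_IR were set against IR to ask how the further condition moved these genes in irradiated mice. The matrix genes other than Col3a1, and Cxcl12, were higher in both groups than in IR. Both comparisons use the same 3 IR libraries, so their values are given side by side. In limma, Col1a1 rose by 1.84 in Ab_IR (SE 0.0687, adjusted p = 8.49e-07) and by 1.85 in L_IR (SE 0.0372, adjusted p = 1.03e-07). Sparc rose by 1.42 and 1.40 in the same order (adjusted p = 6.07e-06 and 1.77e-06). The other 4 genes reached 1 FPKM in the higher group alone, so that their p-values are again those of the fit with no filter. Bglap rose by 2.71 and 2.56 (adjusted p = 4.9e-06 and 0.000126), and Bglap2 by 2.54 and 1.90 (adjusted p = 2.05e-05 and 1.79e-05). With IR at or near 0, the size of these 2 differences rests on the pseudocount, and at 0.1 in place of 1 they were 5.26 and 5.07 for Bglap and 5.30 and 4.51 for Bglap2. Ibsp rose by 1.09 and 1.06 (adjusted p = 6.1e-05 and 0.000122), and Cxcl12 by 1.38 and 1.12 (adjusted p = 4.59e-05 and 6.48e-05). The differences of Col1a2 were 2.57 and 2.48, with no test.

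In Ab_IR against IR, 5.11% of genes tested were called higher and 2.46% lower, and in L_IR against IR 4.09% and 2.13%. An adjusted p under 0.05 was reached by 68.7% and 66.8% of genes. Col1a1 and Sparc, the 2 that passed the filter in both groups, were called higher in each comparison. Bglap, Bglap2, Ibsp and Cxcl12 were called too, but had to differ to pass, and nothing is read from their number. Under quantile normalization, Ibsp (0.98) and Cxcl12 (0.95) in L_IR fell below the fold required. The libraries of the groups did not overlap for Col1a1 and Sparc, as for 73.0% and 71.2% of all genes tested. Col3a1 was the only member below IR in Ab_IR and L_IR, at 0.0733 and 0.0800 FPKM against 0.280 FPKM on average. In these comparisons the split by heart transcripts lies with the groups, since all IR libraries carried Nppa and no Ab_IR or L_IR library did, so group and split cannot be told apart without Ctrl. In a limma fit of all 12 libraries with the split as a term, which draws on Ctrl replicate 1, 5 members were called in each comparison. That fit called 1573 of 12699 genes higher in Ab_IR and 1291 in L_IR, beside 617 and 497 in the main fits. Bglap, Bglap2 and Cxcl12 were among the 5 and reached 1 FPKM in no IR library, so nothing is read from the number. Ibsp was at 0.57 in Ab_IR and 0.54 in L_IR (adjusted p = 0.00239 and 0.0039), below the fold required.

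Ab_IR and L_IR cells both remained below Ctrl for the matrix genes. In Ab_IR, Col1a1 stood at 27.2% of the Ctrl mean, Sparc at 30.1%, Bglap at 33.6%, Bglap2 at 25.5% and Ibsp at 29.2%. In L_IR, Col1a1 stood at 27.3%, Sparc at 29.5%, Bglap at 30.1%, Bglap2 at 14.5% and Ibsp at 28.2%. Cxcl12 was the member tested that came nearest to Ctrl, at 65.8% in Ab_IR and 50.3% in L_IR. Lepr stood at 48.7% and 46.2% and Kitl at 61.9% and 55.4%, with libraries of Ctrl overlapping those of Ab_IR for both genes.

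These comparisons share the Ctrl libraries. In limma, Col1a1 fell by 1.83 in Ab_IR (SE 0.113, adjusted p = 0.00129) and by 1.82 in L_IR (SE 0.0949, adjusted p = 0.000148) relative to Ctrl. Sparc fell by 1.63 and 1.65 (adjusted p = 0.00129 and 0.000161) and Bglap2 by 1.78 and 2.42 (adjusted p = 0.00129 and 7.41e-05). Bglap2 in L_IR was thus the farthest below Ctrl of the members tested, though its single value is uncertain beside Bglap. The sum of both, which was not tested, averaged 8.26 FPKM in L_IR and 37.8 FPKM in Ctrl. Ibsp fell by 1.21 and 1.24 (adjusted p = 0.0149 and 0.00589) and Bglap by 1.38 and 1.54 (adjusted p = 0.0372 and 0.0216). Cxcl12 passed the test but not the fold, at -0.46 and -0.73 (adjusted p = 0.0479 and 0.00232). The differences of Col1a2 were -1.84 and -1.93, with no test.

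In Ab_IR against Ctrl 0.231% of genes tested were called lower and 0.692% higher, and in L_IR against Ctrl 0.62% and 2.03%, whereas 5 of the 6 members tested were called lower in each. In the main limma fits all 6 had an adjusted p under 0.05, against 2.1% and 8.84% of all genes. Cxcl12 in Ab_IR was only just under it, at 0.0479. All 7 members that passed the filter did so in both groups of these comparisons. Libraries of all 6 members tested did not overlap in either comparison, against 33.5% and 36.1% of all genes tested. Ctrl replicate 1, the Ctrl library that like Ab_IR and L_IR carried no heart transcripts, had 79.3 FPKM of Col1a1, 29.2 FPKM of Sparc and 4.10 FPKM of Cxcl12, above every Ab_IR and L_IR library. Without that library, which leaves Ctrl libraries that carry heart transcripts, the same 5 genes were called in each comparison, with Col1a1 at -1.90 in both. With the split as a term in a fit of all 12 libraries 4 were called in each, and Bglap stood at -0.81 in Ab_IR and -0.97 in L_IR, under the fold required. With no filter on low values, Bglap lost its call in Ab_IR (adjusted p = 0.123) and in L_IR (0.0643), and Ibsp in Ab_IR (0.0665). In Ab_IR against Ctrl, the call of Bglap was lost without Ctrl replicate 2 or 3 or without any 1 Ab_IR library (adjusted p = 0.0747 to 0.172), and the call of Ibsp without any 1 Ab_IR library (adjusted p = 0.0767 to 0.0944), which left 3 members called. In L_IR against Ctrl, the call of Bglap was lost without Ctrl replicate 2 or 3 or any 1 L_IR library (adjusted p = 0.0619 to 0.0828).

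Ab_IR was also set against L_IR, 2 groups on the same side of the heart transcript split. Of 7 members tested, 0 were called by limma, where 0.295% of 12194 genes were called higher and 0.238% lower. An adjusted p under 0.05 was reached by 2 members, as was an unadjusted p under 0.05. Bglap2 was 0.64 higher in Ab_IR on the log2 scale (95% confidence interval 0.45 to 0.84, adjusted p = 0.00134) and Cxcl12 0.27 higher (0.12 to 0.42, adjusted p = 0.0158), both past the test and under the fold, where 38.0% of all genes passed the test. The single values of Bglap and Bglap2 are uncertain, and their sum, which was not tested, averaged 11.07 FPKM in Ab_IR and 8.26 FPKM in L_IR. Col1a2 was 0.09 higher in Ab_IR (interval -0.01 to 0.19, adjusted p = 0.133). Col1a1 differed by -0.01 (interval -0.16 to 0.15, adjusted p = 0.955), Sparc by 0.02 (-0.15 to 0.20, adjusted p = 0.828), Bglap by 0.16 (-0.19 to 0.51, adjusted p = 0.434) and Ibsp by 0.03 (-0.15 to 0.21, adjusted p = 0.788). The libraries did not overlap for Bglap2, Cxcl12 and Col1a2, that is, for 3 of the 7 members tested, a share near the 51.9% of all genes tested.

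**Figure D4:**
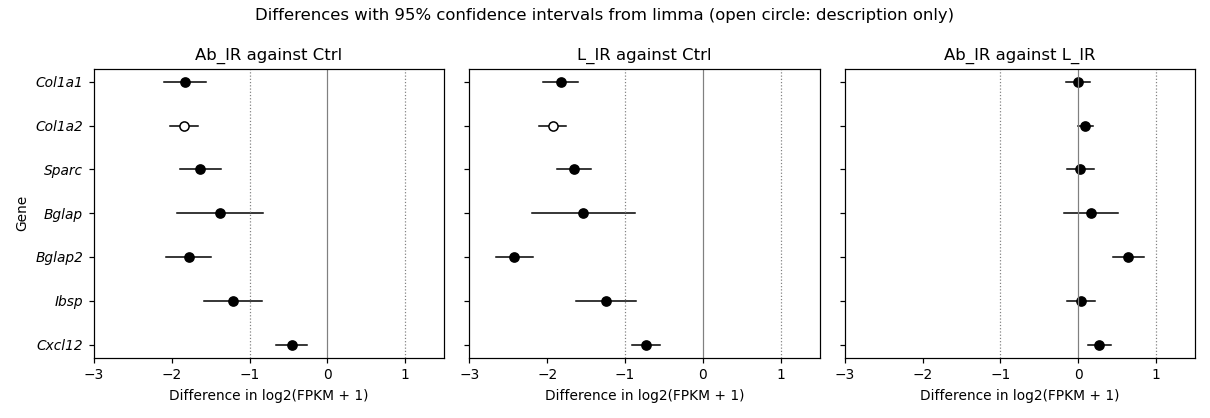
Difference in log2(FPKM + 1) with its 95% confidence interval from limma for the 7 members that passed the filter, in Ab_IR against Ctrl, L_IR against Ctrl and Ab_IR against L_IR (n = 3 per group). The dotted lines mark differences of -1 and 1, the open circle marks Col1a2 where it has no test; against Ctrl every gene lies below 0, Cxcl12 nearest to it at -0.46 and -0.73, and between Ab_IR and L_IR only Bglap2 (0.64) and Cxcl12 (0.27) have intervals above 0.

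The genes whose profile over the 12 libraries was most like that of a member were found by the mean absolute difference of centred log2(FPKM + 1) values among 10535 genes whose mean level was 1 FPKM or more. For Col1a1 they were Sparc (0.203), Col1a2 (0.263) and Bglap2 (0.324). For Col1a2 they were Bglap (0.227), Bglap2 (0.231) and Col1a1, and for Bglap2 they were Col1a2, Bglap (0.319) and Col1a1. As Col1a2 was chosen for its level in IR, its place among these neighbours is a description. The third neighbour of Bglap after Col1a2 and Bglap2 was Aldh1a7 (0.366), whose mean was 12.3 FPKM in Ctrl and 0.343 in IR, with 9.45 in Ab_IR and 6.51 in L_IR.

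Ibsp was closest to genes of a major histocompatibility family, namely H2-Q6 (0.132), H2-Q7 (0.170) and H2-Q4 (0.178). Sparc was nearest to H2-Q6 (0.175), followed by Col1a1 and Ibsp (0.252). H2-Q6 averaged 95.4 FPKM in Ctrl and 16.3 in IR, with 40.4 in Ab_IR and 39.0 in L_IR. The H2-Q genes share much of their sequence, so reads can be split among them. The neighbours of Cxcl12 were Atp1b2 (0.0830), Gpr171 (0.0905) and Tmcc2 (0.0921). Atp1b2, a subunit of the sodium pump, averaged 23.4 FPKM in Ctrl and 6.17 in IR, with 19.1 in Ab_IR and 14.9 in L_IR. The scale compresses low values, so distances are not compared between members and a likeness does not mean an equal fold. In IR, H2-Q6 stood at 17.1% of its Ctrl mean where Ibsp stood at 1.54%, and Atp1b2 at 26.3% where Cxcl12 stood at 9.5%.

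The other gene lists were read in the same way. Among their calls are genes that reached 1 FPKM in the higher group alone and so had to differ, and their number is given with each count, from which nothing is then read. Counts by adjusted p alone and list medians can hold such genes too, and nothing is read from them either.

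Collagen also needs enzymes and chaperones to be folded, hydroxylated and crosslinked, and 30 such genes were listed. In IR against Ctrl 0 of 12 tested were called higher and 1 lower, and 6 higher and 4 lower had an adjusted p under 0.05, with a median difference of 0.26 beside -0.05 over all genes tested. The gene called was Serpinh1, which encodes the collagen chaperone HSP47, at 5.13, 3.34 and 3.83 FPKM in Ctrl and 1.02, 1.01 and 0.94 FPKM in IR (log2 difference -1.34). It passed the filter through its 3 Ctrl libraries, and in the limma fit with no filter its adjusted p was 0.00309. Serpinh1 was at 1.04, 1.34 and 1.52 FPKM in Ab_IR and at 1.46, 1.23 and 1.33 FPKM in L_IR. It was lower than Ctrl there too, with differences of -1.14 and -1.11 (adjusted p = 0.0171 and 0.00529, limma, and 0.0743 and 0.0243 with no filter), and against IR 0 genes of the list were called in Ab_IR or L_IR by limma (11 and 12 tested, of which 8 and 10 had an adjusted p under 0.05). The 5 others that had an adjusted p under 0.05 and were higher in IR, beside P4hb, were the hydroxylase genes P4ha1 (10.8 FPKM on average in Ctrl, 15.05 in IR), Plod1 (3.44, 4.35), Plod3 (37.2, 67.2) and P3h1 (6.61, 9.92) and the export gene Mia3 (13.8, 18.5). Beside Serpinh1, those lower were Crtap (11.1, 7.91), Colgalt1 (32.9, 26.7) and Bmp1, of which Bmp1 reached 1 FPKM in Ctrl alone and so had to be lower to be tested. Bmp1, a protease that trims procollagen, was at 1.27 to 1.31 FPKM in Ctrl, 0.32 to 0.38 in IR, 0.85 to 0.93 in Ab_IR and 0.73 to 0.88 in L_IR, and P3h3, of the prolyl 3-hydroxylase family, at 0.71 to 1.32, 0.23 to 0.29, 0.73 to 1.12 and 0.72 to 0.97 FPKM, with P3h3 not tested in IR against Ctrl. Adamts2, another procollagen protease, stood at 0.20 to 0.31 FPKM in Ctrl and 0.04 to 0.14 FPKM in the other groups. P4hb, a subunit of prolyl hydroxylase that most cells use in protein folding, made up most of the list's level, at 445 to 466 FPKM in Ctrl and 621 to 622 FPKM in IR. The summed level was 639 to 645 FPKM in Ctrl, 843 to 846 in IR, 628 to 670 in Ab_IR and 608 to 619 in L_IR.

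Of other matrix genes, 44 in all, 6 of 19 tested were called lower in IR than in Ctrl (4 of them through Ctrl alone) and 2 higher (both through IR alone). Against IR the calls were 3 of 14 higher (1 through Ab_IR alone) and 4 lower (all through IR alone) in Ab_IR, and 3 of 16 higher (1 through L_IR alone) and 6 lower (4 through IR alone) in L_IR. Thbs1, which encodes thrombospondin 1 and is also a platelet gene, was at 20.97 to 24.7 FPKM in Ctrl, 5.79 to 6.25 in IR, 33.5 to 34.6 in Ab_IR and 27.1 to 29.3 in L_IR, so that unlike the members it stood above Ctrl in Ab_IR and L_IR. Mmp14, a collagenase of the cell membrane, was at 3.79 to 4.82 FPKM in Ctrl, 0.83 to 1.07 in IR, 4.05 to 4.31 in Ab_IR and 3.65 to 4.75 in L_IR. Mmp13, a collagenase of bone, was at 2.29 to 8.20 FPKM in Ctrl, 0.32 to 0.66 in IR, 2.49 to 8.85 in Ab_IR and 3.16 to 8.49 in L_IR, with a wide spread within groups. Fn1, which encodes fibronectin, went another way, at 12.7 to 18.2 FPKM in Ctrl, 23.4 to 24.0 in IR, 11.1 to 12.3 in Ab_IR and 10.9 to 11.6 in L_IR. Against Ctrl, the list's calls in Ab_IR were 4 of 15 lower, and in L_IR 4 of 17 lower and 1 higher. The 4 lower in both, chosen here after their values were seen, were the fibrillar collagen gene Col11a1 and the proteoglycan genes Dcn, Lum and Bgn. All 5 passed the filter through the higher group alone. The list's summed level was 81.1 to 96.7 FPKM in Ctrl, 65.4 to 70.3 in IR, 73.7 to 82.0 in Ab_IR and 71.2 to 73.0 in L_IR.

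Markers of osteoblasts and osteocytes beyond the members were sparse. Of 24 such genes in the files 18 were below 1 FPKM in all 12 libraries, and 4 or 5 could be tested in a comparison. Sp7, the transcription factor that defines the lineage, was at 0, 0.31 and 0.28 FPKM in Ctrl, 0 to 0.02 in IR, 0.04 to 0.12 in Ab_IR and 0.06 to 0.13 in L_IR, and the osteocyte gene Dmp1 at 0.18 to 0.43, 0 to 0.07, 0.12 to 0.19 and 0.10 to 0.11 FPKM. Alpl, an alkaline phosphatase needed for mineral, was at 1.25 to 1.42 FPKM in Ctrl, 1.55 to 1.59 in IR, 0.69 to 0.90 in Ab_IR and 1.15 to 1.48 in L_IR. Ifitm5 averaged 0.257, 0.437, 0.397 and 0.310 FPKM and Phospho1 1.03, 1.18, 0.957 and 0.840 FPKM in the same order of groups. Runx2, which drives osteoblast formation and is also used in blood cells, was the one gene called, 1.01 lower in IR than in Ctrl (adjusted p = 0.000502, limma) and above IR by 1.08 in L_IR (adjusted p = 1.34e-06). It was at 7.65 to 9.58 FPKM in Ctrl, 3.46 to 3.79 in IR, 7.16 to 7.49 in Ab_IR and 8.62 to 8.87 in L_IR. Spp1, which encodes osteopontin, a matrix protein that macrophages also make, was the most abundant of the list and stood at 7.27 to 10.2 FPKM in Ctrl, 14.6 to 16.6 in IR, 10.1 to 14.9 in Ab_IR and 11.4 to 14.2 in L_IR. The list summed to 27.4 to 30.2, 30.4 to 32.0, 26.2 to 31.0 and 29.9 to 32.1 FPKM in the same order. Its part in the members' levels was not tested.

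Of 27 stromal cell genes, 17 were below 1 FPKM in all libraries. Adipoq, Pdgfra, Foxc1, Ebf3 and Prrx1, which define marrow stroma, lay between 0 and 0.42 FPKM in every library. In IR against Ctrl 4 of 10 tested were called lower and 0 higher, in Ab_IR against IR 3 of 10 and in L_IR against IR 1 of 9 were called higher with 0 lower. Pdgfrb was 1 of the 4 and 1 of the 3, and passed the filter through the higher group alone. Angpt1, a niche factor that HSCs also make, was at 6.77 to 7.46 FPKM in Ctrl, 1.47 to 1.60 in IR, 5.74 to 6.44 in Ab_IR and 5.22 to 5.82 in L_IR. Vcam1, an adhesion molecule of stroma and macrophages, was at 19.4 to 20.3, 7.11 to 7.39, 15.5 to 17.0 and 10.6 to 11.6 FPKM. Pdgfrb, a receptor of mural cells, was at 2.85 to 3.56, 0.40 to 0.50, 1.71 to 2.11 and 1.56 to 1.69 FPKM. Igfbp4 was the most abundant of the list and was not called, at 48.5 to 60.4 FPKM in Ctrl and 54.2 to 55.3 in IR. Against Ctrl, 1 of 10 was called lower in Ab_IR, and 1 of 10 lower (through Ctrl alone) and 1 higher in L_IR. The gene called higher was Thy1, which T cells also carry, at 0.92, 2.46 and 2.37 FPKM in Ctrl and 5.98 to 6.42 in L_IR. The list summed to 96.2 to 113 FPKM in Ctrl, 81.8 to 83.5 in IR, 113 to 116 in Ab_IR and 104 to 110 in L_IR.

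**Figure D5:**
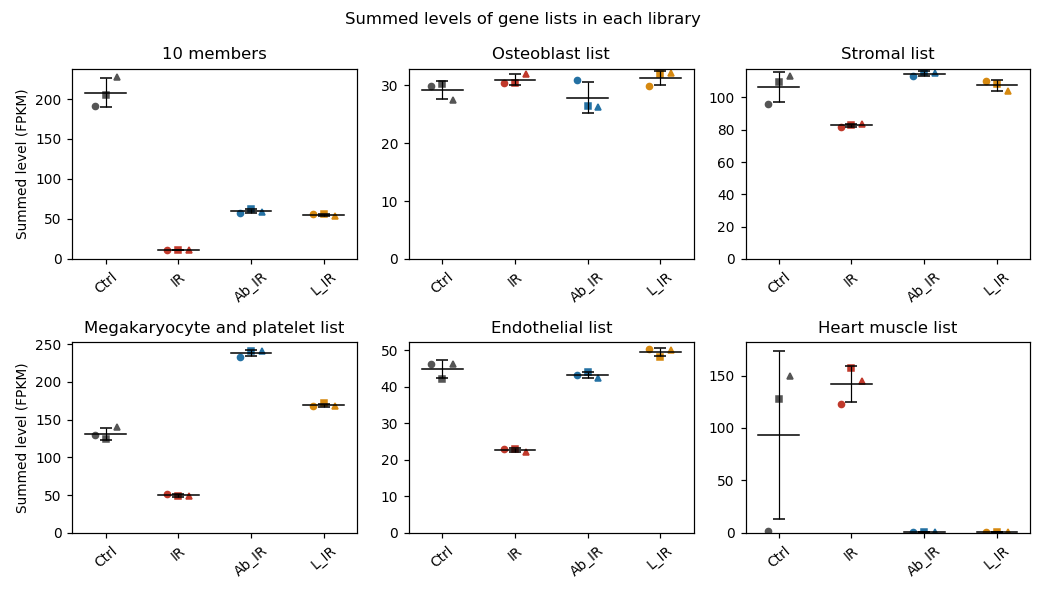
Summed FPKM of the 10 members and of lists of osteoblast, stromal, megakaryocyte and platelet, endothelial and heart muscle genes in each library, each panel with its own axis from 0. Points are libraries (circle, square and triangle for replicates 1, 2 and 3), the long bar is the mean and the error bar the SD of 3; the members sum to 192 to 227 in Ctrl, 10.6 to 11.5 in IR, 57.9 to 63.0 in Ab_IR and 54.0 to 56.1 in L_IR, and the heart list parts Ctrl replicate 1 from the other Ctrl libraries.

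Transcripts typical of other marrow cells that the preparation could hold also differed between the groups. The members summed to 192 to 227 FPKM in Ctrl, 10.6 to 11.5 in IR, 57.9 to 63.0 in Ab_IR and 54.0 to 56.1 in L_IR. Megakaryocyte and platelet genes were lowest in IR as well but highest in Ab_IR, at 124 to 140, 48.1 to 52.0, 233 to 241 and 167 to 171 FPKM. Of these 20 genes 9 of 15 tested were called lower in IR than in Ctrl (4 through Ctrl alone), 12 of 17 higher in Ab_IR (5 through Ab_IR alone) and 10 of 16 higher in L_IR (3 through L_IR alone) than in IR, 0 of 18 differed by that rule between Ab_IR and L_IR, and 3 of 17 in Ab_IR and 2 of 16 in L_IR were called higher than Ctrl. Ppbp, a platelet chemokine, was at 10.1 to 15.3 FPKM in Ctrl, 1.70 to 1.84 in IR, 63.9 to 67.5 in Ab_IR and 32.5 to 37.7 in L_IR. Pf4 was at 18.6 to 27.1, 3.41 to 4.89, 36.5 to 39.0 and 23.3 to 29.1 FPKM, and Itga2b at 16.7 to 17.4, 5.20 to 5.50, 20.3 to 21.8 and 15.05 to 16.2 FPKM. Their part in the members' levels was not tested.

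Endothelial genes, 20 in all, summed to 42.1 to 46.3 FPKM in Ctrl, 22.1 to 23.0 in IR, 42.4 to 44.0 in Ab_IR and 48.2 to 50.5 in L_IR. Eng, which HSCs also express, was called lower in IR than in Ctrl (1 of 6 tested) and higher in Ab_IR (1 of 7) and L_IR (2 of 8, with Plvap, which passed the filter through L_IR alone) than in IR. Eng was at 14.2 to 17.2 FPKM in Ctrl, 3.88 to 4.32 in IR, 14.1 to 15.1 in Ab_IR and 15.5 to 16.5 in L_IR, and Plvap did not exceed 2.84 FPKM. Pecam1, which blood cells also carry, was at 11.9 to 13.1, 6.08 to 6.74, 11.4 to 11.9 and 10.6 to 11.3 FPKM in Ctrl, IR, Ab_IR and L_IR, Tie1 at 4.18 to 5.75, 3.74 to 3.95, 5.01 to 5.36 and 5.53 to 5.67 FPKM, and Egfl7 at 4.08 to 6.63, 2.81 to 3.34, 4.65 to 4.95 and 4.66 to 4.97 FPKM. Cdh5, a cadherin of vessels, averaged 0.470, 0.457, 0.477 and 1.02 FPKM, Kdr 0.227, 0.230, 0.480 and 1.02 FPKM and Stab2 0.413, 0.607, 0.430 and 1.57 FPKM. These 3 were thus highest in L_IR, where 9 genes of the list averaged 1 FPKM or more, against 5 in Ctrl, 5 in IR and 6 in Ab_IR. Emcn stayed at 0.10 to 0.28 FPKM.

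Bone-resorbing osteoclasts were represented by 11 genes that summed to 427 to 455 FPKM in Ctrl, 123 to 128 in IR, 380 to 417 in Ab_IR and 282 to 289 in L_IR. Most of this level was Car2, which red cell precursors also express, at 376 to 406 FPKM in Ctrl and 63.8 to 68.0 in IR. In IR against Ctrl 1 of 5 tested was called higher (Mmp9) and 1 lower (Car2), in Ab_IR against IR 3 of 6 higher (Ctsk through Ab_IR alone) and 1 lower, in L_IR against IR 2 of 5 higher and 1 lower. Ctsk, the collagen-degrading protease of osteoclasts, was at 0.67 to 0.72 FPKM in Ctrl, 0.39 to 0.62 in IR, 2.47 to 2.91 in Ab_IR and 0.59 to 1.08 in L_IR. Mmp9 was at 12.1 to 13.9, 30.5 to 32.7, 7.21 to 8.38 and 2.0 to 2.26 FPKM, and Itgb3 at 6.59 to 7.58, 3.03 to 3.54, 11.4 to 11.9 and 8.73 to 8.75 FPKM.

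Macrophage genes, 16 in all, summed to 133 to 136 FPKM in Ctrl, 102 to 113 in IR, 154 to 166 in Ab_IR and 151 to 172 in L_IR. Of 13 tested in each comparison 3 were called lower in IR than in Ctrl, 3 were called higher in Ab_IR and 2 in L_IR than in IR. Against Ctrl, 1 was called higher in Ab_IR and 2 in L_IR (1 through L_IR alone), including Hmox1 in both (log2 differences 1.29 and 1.54, adjusted p = 0.00232 and 0.00192, limma). Csf1r, a receptor of macrophages, averaged 17.0, 7.88, 19.9 and 20.5 FPKM in Ctrl, IR, Ab_IR and L_IR, and Cd68 averaged 19.8, 20.98, 24.3 and 26.7 FPKM. Heart muscle genes, 13 in all, summed to 1.24 FPKM in Ctrl replicate 1, up to 149 in the other Ctrl libraries, 123 to 157 in IR, 0.87 to 1.12 in Ab_IR and 0.91 to 0.98 in L_IR, and the 9 tested in Ab_IR and in L_IR against IR all passed the filter through IR alone. The members summed to 192 to 227 FPKM in Ctrl and 10.6 to 11.5 in IR, and only 1 Ctrl library, replicate 1, lacked heart transcripts. The part of this split in the members' levels was not tested.

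Receptors through which HSCs sense collagen and niche factors were set beside their ligands. Of 21 genes 11 were tested in IR against Ctrl, of which 1 was called lower. This was Kit, the receptor of the Kitl product, at 23.5 ± 2.09 FPKM in Ctrl and 6.87 ± 0.155 in IR, with 18.1 ± 0.838 in Ab_IR and 17.9 ± 0.0961 in L_IR (SD, n = 3). Cxcr4, the receptor of the Cxcl12 product, was at 93.8 to 110 FPKM in Ctrl, 48.6 to 52.8 in IR, 103 to 104 in Ab_IR and 77.0 to 79.8 in L_IR. It was 0.98 lower in IR than in Ctrl (adjusted p = 0.000234, limma), just under the fold required, and 1.01 higher in Ab_IR than in IR (adjusted p = 9.03e-07). In Ab_IR against IR 3 of 11 receptors were called higher, in L_IR against IR 2 of 13, and in the other comparisons 0 were called, where 1 of 11 in Ab_IR against Ctrl, 4 of 13 in L_IR against Ctrl and 7 of 13 in Ab_IR against L_IR had an adjusted p under 0.05. The receptors summed to 265 to 289 FPKM in Ctrl, 184 to 185 in IR, 262 to 267 in Ab_IR and 238 to 240 in L_IR.

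On the log2 scale, the median difference of each list was read beside that of all genes tested. In IR against Ctrl the median over all genes was -0.05, and the lists had -0.52 for other matrix genes, 0.13 for osteoblast, -0.14 for stromal, -0.55 for endothelial, -0.25 for osteoclast, -1.28 for megakaryocyte and platelet, -0.21 for macrophage, 0.93 for heart muscle (0.04 without Ctrl replicate 1) and -0.21 for receptor genes. These medians take in genes that passed the filter through the higher group alone, whose direction was thereby fixed, so the lists are not ranked by them. In IR against Ctrl, 4 of the megakaryocyte and platelet genes called were such genes. Against IR, all 9 heart muscle genes tested were such genes in Ab_IR and in L_IR. In Ab_IR against IR the median over all genes was 0.06, with -0.41 for collagen-making, -0.62 for other matrix, -0.37 for osteoblast, 0.26 for stromal, 0.71 for endothelial, 0.84 for osteoclast, 1.67 for megakaryocyte and platelet, 0.42 for macrophage, -2.34 for heart muscle and 0.08 for receptor genes. In L_IR against IR it was 0.07, with -0.24, -0.14, -0.21, 0.35, 0.68, 0.11, 1.36, 0.45, -2.35 and 0.30 for the lists in that order.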

How the data were processed

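RNA-seq was made from 12 libraries of sorted HSCs, 3 per group, grouped by the labels. Per the labels, stranded poly(A) libraries were prepared. The submitters' processing notes name fastp, HISAT2, StringTie and GRCm38/mm10, whereas the study's methods name fastp, RSEM and DESeq2. The annotation is not given in the sources used here. The deposited values name no unit and were read as FPKM, computed by the authors, since library sums differ and are not those of TPM or CPM. The depth is unknown, so small differences at low FPKM are imprecise.

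limma 3.58.1 in R 4.3.3 (lmFit, eBayes with trend) was run for each of 6 comparisons on its 6 libraries, using log2(FPKM + 1) and rows that reached 1 FPKM in 3 or more of them. Adjusted p-values are Benjamini-Hochberg values from limma over all genes tested, and for members that passed the filter through the higher group alone those of the fit with no filter are given. Scripts were tested on simulated data. Figures were drawn with matplotlib 3.10.9.

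The members and gene lists (collagen-making, other matrix, osteoblast, stromal, endothelial, osteoclast, megakaryocyte and platelet, macrophage, heart, receptors) were chosen with earlier results of these data known. Named were the members, the 3 genes most like each, and from each list the most abundant gene and up to 4 called genes of highest mean. Bglap3, Sp7, Dmp1, Alpl, Ifitm5, Phospho1, Adipoq, Pdgfra, Foxc1, Ebf3, Prrx1, Pecam1, Tie1, Egfl7, Cdh5, Kdr, Stab2, Emcn, P4ha1, Plod1, Plod3, P3h1, Mia3, Crtap, Colgalt1, Bmp1, P3h3, Adamts2, Col11a1, Dcn, Lum, Bgn and the genes of the sort were added after their values were seen. Positions are from GENCODE M21 (GRCm38), which 96.7% of gene names matched. Alternatives were a pseudocount of 0.1, no filter, quantile normalization, median ratio scaling, no trend, all 12 libraries in 1 fit, the replicate number as a block, leaving out each library and, added after seeing the data, the heart transcript split as a term.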

Additional observations from a re-analysis of the deposited data

How the results depend on the processing

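The number of members called stayed within 1.5 times its main value in 80 of 84 recalculations. In Ab_IR against Ctrl it was 3 with no filter on low values (Bglap adjusted p = 0.123, Ibsp 0.0665), and leaving out each library gave 3 to 5, against 5. Of the single log2 differences, 7 turned sign, all in Ab_IR against L_IR where the main values were at most 0.16. Without 1 library, Col1a1 ranged from -0.0757 to 0.0518, Sparc from -0.0423 to 0.0983, Bglap from -0.0309 to 0.281 and Ibsp from -0.0247 to 0.0734. Col1a1 was 0.0518 without Ab_IR replicate 1, 0.00663 without Ab_IR replicate 3 and 0.00744 without L_IR replicate 1. Ibsp was -0.00344 without Ab_IR replicate 1 and -0.0247 without L_IR replicate 2, while Sparc turned without Ab_IR replicate 2 and Bglap without L_IR replicate 3. The cause was not tested. A further 23 kept their direction but lost the call, of which 19 were Bglap or Ibsp in comparisons with Ctrl. In L_IR against IR, quantile normalization brought Ibsp to 0.98 and Cxcl12 to 0.95, under the fold required. With the heart transcript split as a term, Bglap was -0.81 in Ab_IR and -0.97 in L_IR against Ctrl. Of all genes, that fit called 860 in Ab_IR and 916 in L_IR against Ctrl, beside 112 and 325 in the main fits. In L_IR against Ctrl, Bglap also lost its call with no filter (adjusted p = 0.0643), without Ctrl replicate 2 (0.0672) or 3 (0.0664) and without any 1 L_IR library (0.0619 to 0.0828). A pseudocount of 0.1 gave the largest differences, -7.25 for Bglap2, -6.76 for Bglap and -5.26 for Col1a2 in IR against Ctrl.

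Same-numbered libraries deviated from their group means with correlations of -0.268 to 0.224 across genes, in no comparison all over 0.1, so the numbers were not taken to pair the libraries. With the replicate block, Bglap in Ab_IR against Ctrl had an adjusted p of 0.0585, which left 4 members called, and no other call of a member was lost. FPKM give no depth, which limits Kitl, Lepr and Col3a1 most.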
